A study of Mus musculus with 6 samples.

Results

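The extracellular matrix genes of the deposited count table were the 66 rows, of 24062 in all, whose symbol is a collagen chain (Col, a number, a and a number), a laminin chain (Lama, Lamb or Lamc and a digit), or 1 of 11 further matrix genes (Nid1, Nid2, Hspg2, Agrn, Fn1, Sparc, Fbn1, Dcn, Lum, Bgn and Eln). They were divided by where their proteins are mainly laid down, into 23 basement membrane genes, 32 interstitial genes and 11 others. The samples were TRAPseq libraries of female GFP-L10aEC mice, in which VECad-Cre switches on a GFP-tagged ribosomal protein L10a at the Rosa26 locus in endothelial cells, and their ribosomes with the bound RNA were pulled down through the tag. All mice, controls included, carried the tagged ribosome and had been ovariectomized. They received pellets for 4 weeks with either vehicle (placebo in the labels) or 17β-estradiol (E2). There were 3 libraries per treatment from gastrocnemius and soleus muscle, and each label names 2 mouse numbers. The sources used here do not state whether these mice were pooled, and the study's methods count more biological replicates per group than there are libraries, so n is the number of libraries throughout. The labels put the mice at 4 weeks of age and name a B6.129S4 strain with CAG-EGFP/Rpl10a at ROSA26, whereas the methods place the ovariectomy at 6 weeks of age. The question addressed was which of these genes differed in ribosome-associated RNA between E2 and vehicle, and whether basement membrane and interstitial genes differed alike.

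The basement membrane is the thin sheet on which endothelial cells rest, and in muscle it also wraps pericytes and every fiber. Its backbone is a network of type IV collagen and a network of laminin, which nidogens and the heparan sulfate proteoglycan perlecan link together. The interstitial matrix between these sheets is built of fibrillar collagens, type VI collagen filaments, elastic fibers, fibronectin and small leucine-rich proteoglycans, and is made mainly by fibroblasts.

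The depth decides which of these genes can be compared. Library totals ranged from 84823 to 451034 counts, the matrix genes held 3672 of the 1350174 counts in all, and the ribosomal RNA gene Rn45s held 28.5 to 42.9% of a library. Of the 66 genes, 31 had 20 or more counts over the 6 libraries together, 27 had between 1 and 19, and 8 had none (Lama1, Lamc3, Col6a4, Col9a2, Col9a3, Col19a1, Col20a1 and Col26a1). A total of 15 passed edgeR's filter on low counts and were tested among 1682 genes. They comprise 3 basement membrane genes (Col4a1, Col4a2 and Hspg2), 11 interstitial genes and Sparc. A count of 0 allows up to 3 counts, or 35.4 CPM (counts after scaling each library to 1000000) in vehicle replicate 3, the shallowest library, and 6.65 CPM in vehicle replicate 2, the deepest. The libraries also differed in ways that treatment does not describe. Although all mice are described as female, the Y-linked genes read here (4) were present in vehicle replicate 1 (40 counts) and vehicle replicate 2 (63 counts), with 0 counts elsewhere. Results are therefore also given with vehicle replicates 1 and 2 left out, which leaves 1 vehicle library against 3 E2 libraries and assumes that the lone library varies like the E2 libraries. The smallest chi-square per degree of freedom between a pair of libraries was 2.89, so no pair agreed within sampling noise. It was 2.90 between vehicle replicates 1 and 2, 10.8 and 10.3 between these and vehicle replicate 3, and 4.76, 5.08 and 9.48 between vehicle replicate 3 and E2 replicates 1, 2 and 3. This measure grows with the depth of both libraries, so the pairs are not ranked by it. Xist, expressed from the inactive X chromosome, had 1, 1 and 3 counts with vehicle and 6, 17 and 9 with E2. In CPM it was 3.46, 2.22 and 35.4 with vehicle and 47.6, 85.6 and 44.8 with E2. Vehicle replicates 1 and 2, which hold the Y-linked counts, were thus also lowest in Xist. Such libraries occur only with vehicle, so over all 6 libraries this difference cannot be told apart from treatment. Nothing in the labels says that the replicates are independent beyond their mouse numbers, and p-values measure the spread between these libraries, which may be in part technical.

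The 2 matrix genes called between the treatments were the paired type IV collagen chains Col4a1 and Col4a2. Their products, the α1 and α2 chains, assemble into the type IV collagen present in most basement membranes. The genes lie head to head on chromosome 8 of mm10 in the annotation of GENCODE release M21, with Col4a1 (ENSMUSG00000031502.11) on the minus strand at chr8:11198423-11312826 and Col4a2 (ENSMUSG00000031503.13) on the plus strand at chr8:11312805-11449287. Their annotated starts are 21 bases apart and their first exons overlap by 22 bases on opposite strands. The promoter windows of RefSeq (GRCm38.p6), which run from 250 bases before to 50 bases after each start, are shown because the genes that were called together share a stretch of 78 bases of them. That stretch is in capitals and is read on opposite strands in the 2 sequences, which cover chr8:11312777-11313076 (minus strand) for Col4a1 and chr8:11312555-11312854 (plus strand) for Col4a2.
Col4a1: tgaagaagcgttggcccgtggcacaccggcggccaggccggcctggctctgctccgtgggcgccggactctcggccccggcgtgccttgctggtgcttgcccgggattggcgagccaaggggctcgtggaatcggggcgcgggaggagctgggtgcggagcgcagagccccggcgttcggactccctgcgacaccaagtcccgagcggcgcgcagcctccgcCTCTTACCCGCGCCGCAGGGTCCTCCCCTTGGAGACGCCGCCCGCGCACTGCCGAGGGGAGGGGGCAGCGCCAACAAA
Col4a2: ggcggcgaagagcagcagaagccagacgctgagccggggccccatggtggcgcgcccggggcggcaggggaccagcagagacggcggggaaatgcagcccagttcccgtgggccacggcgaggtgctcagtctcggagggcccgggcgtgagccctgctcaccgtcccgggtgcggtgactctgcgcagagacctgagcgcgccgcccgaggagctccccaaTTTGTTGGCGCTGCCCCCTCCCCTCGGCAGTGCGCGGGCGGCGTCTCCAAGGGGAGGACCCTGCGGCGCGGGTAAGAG

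Col4a2 was 235, 239 and 70.7 CPM in vehicle replicates 1, 2 and 3 and 47.6, 35.3 and 24.9 CPM in E2 replicates 1, 2 and 3, from 68, 108 and 6 counts against 6, 7 and 5. The groups did not overlap, although vehicle replicate 3 was much nearer to the E2 libraries than to the other vehicle libraries and rests on few counts. The log2 fold change of Col4a2 was -2.31 (standard error, SE, 0.53, n = 3 per group, adjusted p = 0.0215 in edgeR, by the quasi-likelihood test and the Benjamini-Hochberg method). Col4a1 was 177, 235 and 118 CPM with vehicle and 23.8, 40.3 and 64.7 CPM with E2, from 51, 106 and 10 counts against 3, 8 and 13. Its groups did not overlap either, and its highest E2 library was replicate 3 where that of Col4a2 was replicate 1. The log2 fold change of Col4a1 was -1.86 (SE 0.50, n = 3 per group, adjusted p = 0.0380 in edgeR). Both genes fell at the threshold of an adjusted p below 0.05, which 2.97% of all genes tested passed in the lower direction and 2.5% in the higher one, and no matrix gene passed in the higher direction by edgeR's or any other test run, nor at an unadjusted p of 0.05 or less. Neither call held when any library except vehicle replicate 3 was left out, with adjusted p in edgeR of up to 0.253 for Col4a1 and 0.168 for Col4a2, or with limma-voom, at an adjusted p of 0.0573 and 0.0676. With 1 library left out the log2 fold changes ran from -2.33 to -1.53 for Col4a1 and from -2.52 to -2.06 for Col4a2. With vehicle replicates 1 and 2 left out, the log2 fold changes were -1.26 for Col4a1 and -0.90 for Col4a2, with adjusted p of 0.616 and 0.812 in edgeR.

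**Figure D1:**
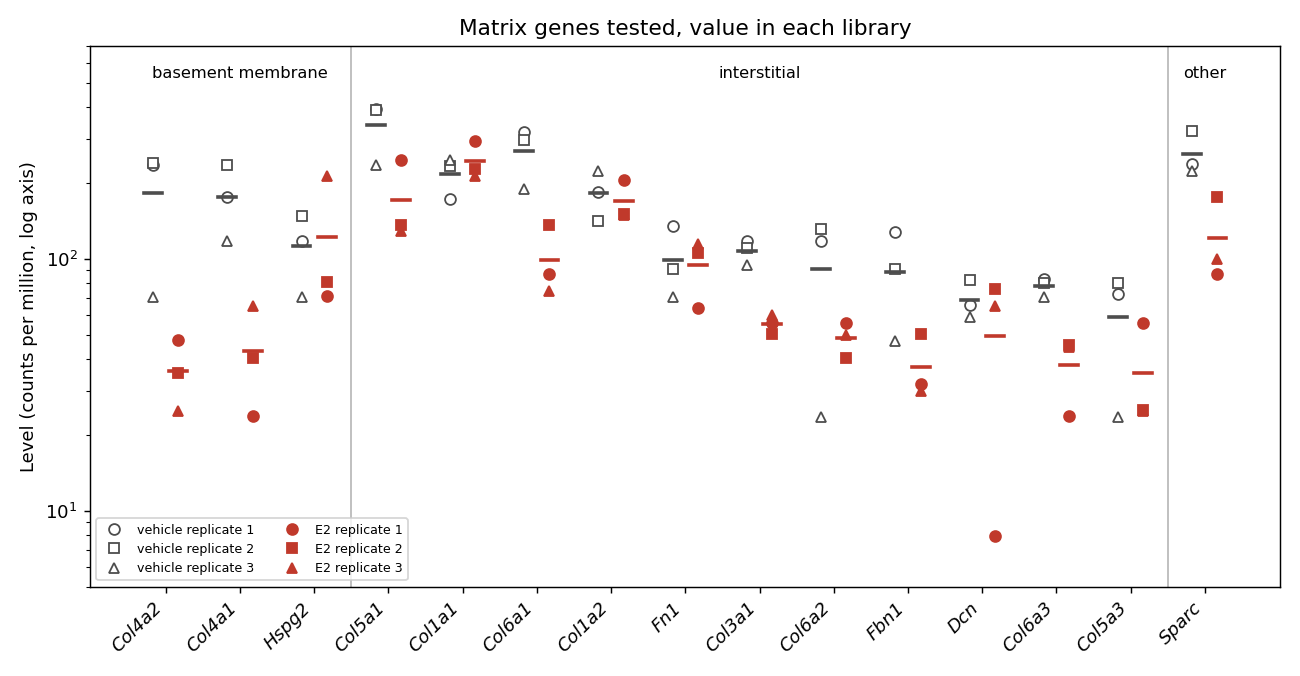
Level of the 15 matrix genes tested in each library, in CPM on a log axis, with open grey symbols for vehicle, filled red symbols for E2, 1 symbol shape per replicate number and a bar at each group mean. The E2 libraries of Col4a2 (24.9 to 47.6) and Col4a1 (23.8 to 64.7) lie below their vehicle libraries (70.7 to 239 and 118 to 235), whereas those of Hspg2 (71.5 to 214) and Col1a1 (214 to 294) overlap theirs (70.7 to 149 and 173 to 248).

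Given per kilobase of the longest protein-coding transcript, so that genes can be set beside each other, the 2 chains were at like levels with vehicle. Col4a2 averaged 28.2 ± 14.9 CPM per kb and Col4a1 26.7 ± 8.85 (SD, n = 3), which placed them at ranks 7 and 8 among the 66 genes by their mean, with a difference far inside the spread. With E2 they averaged 5.57 ± 1.77 and 6.49 ± 3.11 CPM per kb, at ranks 16 and 14. The ratio of Col4a1 to Col4a2 per kb was 0.731, 0.957 and 1.63 with vehicle and 0.488, 1.11 and 2.54 with E2, so the groups overlapped and no shift between the chains was seen against this spread. The rarer type IV chains, which replace α1 and α2 in specialised basement membranes such as that of the kidney filter, had 10 (Col4a3), 11 (Col4a4), 3 (Col4a5) and 6 (Col4a6) counts over all libraries. They too form head-to-head pairs, with starts 72 bases apart for Col4a3 and Col4a4 and 1309 bases apart for Col4a5 and Col4a6, and were too low to compare.

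Hspg2 encodes perlecan, and its values did not follow those of type IV collagen. Its level was 118, 149 and 70.7 CPM with vehicle and 71.5, 80.6 and 214 CPM with E2. E2 replicate 3 was the highest of all 6 libraries, while the other E2 libraries lay within the vehicle range. Hspg2 had a log2 fold change of 0.28 (SE 0.51, adjusted p = 0.776 in edgeR), and it was -0.50 without E2 replicate 3 and 0.97 with vehicle replicates 1 and 2 left out. The ratio of Hspg2 to Col4a1 per kb was 0.311, 0.295 and 0.280 with vehicle and 1.40, 0.933 and 1.54 with E2. The 3 vehicle libraries were close to each other in this ratio, and all E2 libraries were above them. Hspg2 had 34, 67 and 6 counts with vehicle and 9, 16 and 43 with E2. The ratio therefore rests on 6 over 10 counts in vehicle replicate 3 and 9 over 3 in E2 replicate 1. Col4a1 and Col4a2 were both called lower with E2, so higher ratios to them with E2 follow in part from their choice as denominators. The ratio to Col4a2 ranged from 0.227 to 0.455 with vehicle and from 0.682 to 3.91 with E2. These ratios were looked at after the values of the genes had been seen and are given with no test.

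The laminins and nidogens were near or below the limit of the comparison. Lamb2, the laminin β2 chain, had 30, 55 and 1 counts with vehicle and 5, 8 and 8 with E2, or 104, 122 and 11.8 CPM against 39.7, 40.3 and 39.8 CPM. The E2 libraries were almost equal and fell between vehicle replicate 3 and the other vehicle libraries, so the groups overlapped. Nid1, which encodes nidogen 1, had 18, 42 and 3 counts against 3, 9 and 4, and E2 replicate 2 at 45.3 CPM lay above vehicle replicate 3 at 35.4 CPM. Lamb1 (laminin β1) had 6, 19 and 0 counts against 1, 5 and 2, Lamc1 (laminin γ1) had 3, 13 and 1 against 2, 6 and 0, and Lama4 (laminin α4, an endothelial laminin chain) had 6, 15 and 0 against 0, 2 and 0. In all 3 genes the groups overlapped, and vehicle replicate 3 held at most 1 count. The remaining laminin chains had 17 (Lama2, the α chain of muscle fiber basement membranes) counts or fewer over all libraries, as did Nid2 with 9 and the proteoglycan gene Agrn (agrin) with 6. All 6 counts of Agrn were in vehicle libraries, at 3.46 to 11.8 CPM, which is below what a 0 allows in each E2 library (14.9 to 23.8 CPM). Col18a1 and Col15a1 encode the multiplexin collagens of the vessel wall, the first of which is the precursor of endostatin. Col18a1 was 20.8, 26.6 and 23.6 CPM with vehicle and 15.9, 20.1 and 19.9 CPM with E2, which did not overlap, but the gap between the nearest libraries is less than 1 count is worth in any library. Col15a1 had 2, 15 and 3 counts with vehicle and 0, 1 and 3 with E2, which overlapped.

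Among the fibrillar collagens, the type I chains had values near 0 and the type III and V chains had negative values that did not pass the test. Col1a1 was 173, 233 and 248 CPM with vehicle and 294, 227 and 214 CPM with E2, and Col1a2 was 183, 142 and 224 CPM against 206, 151 and 149 CPM. The groups overlapped in both, the log2 fold changes were 0.31 (SE 0.43) and 0.036 (SE 0.44), and that of Col1a2 changed its sign under 7 of 19 alternatives. The ratio of Col1a1 to Col1a2 per kb was 1.11 ± 0.329 with vehicle and 1.31 ± 0.0377 with E2 (SD, n = 3). Col3a1, the chain of type III collagen, was 118, 111 and 94.3 CPM with vehicle and 55.6, 50.4 and 59.7 CPM with E2. Here each group was tight and the groups were well apart, and the log2 fold change was -0.84 (SE 0.44, adjusted p = 0.231 in edgeR). Col5a1, which encodes a type V chain that helps set the width of collagen fibrils, was 395, 388 and 236 CPM against 246, 136 and 129 CPM. E2 replicate 1 lay just above vehicle replicate 3, and the log2 fold change was -0.90 (SE 0.46). Col5a3 was 72.7, 79.8 and 23.6 CPM against 55.6, 25.2 and 24.9 CPM, overlapping, with a log2 fold change of -0.84 (SE 0.56). The low type V and XI chains had few counts, of which Col5a2 had 8, 9 and 2 against 2, 1 and 1 and did not overlap between groups in CPM. Col11a1 had 14, 12 and 0 counts against 1, 1 and 2, and Col11a2 had 6, 6 and 1 against 5, 1 and 3, both overlapping.

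The 3 tested chains of type VI collagen, whose beaded filaments join basement membranes to the interstitial matrix, had negative values. Col6a1 was 319, 297 and 189 CPM with vehicle and 87.3, 136 and 74.6 CPM with E2, without overlap. Its log2 fold change was -1.34 (SE 0.44, unadjusted p = 0.00723 and adjusted p = 0.0783 in edgeR), the lowest among the interstitial genes tested. Col6a3 was 83.1, 79.8 and 70.7 CPM against 23.8, 45.3 and 44.8 CPM, also without overlap, at a log2 fold change of -0.86 (SE 0.47). Col6a2 was 118, 131 and 23.6 CPM against 55.6, 40.3 and 49.7 CPM. Its vehicle replicate 3, with 2 counts, was the lowest of the 6 libraries, so the groups overlapped, and the log2 fold change was -0.92 (SE 0.51). Under edgeR's likelihood ratio test Col6a1 passed at an adjusted p of 0.0267, where 152 of 1682 genes were lower. Without vehicle replicate 3, Col6a2 passed at an adjusted p of 0.0230 and Col6a1 at 0.00177 in edgeR, in a fit that called 526 of 2162 genes lower. Col5a1 (adjusted p = 0.0175), Fbn1 (0.0196) and Sparc (0.0207) also passed in that fit. Col6a5 and Col6a6 had 6 and 13 counts, all of them in vehicle replicates 1 and 2.

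Of the elastic fiber genes, Fbn1, which encodes fibrillin 1, was 128, 90.9 and 47.2 CPM with vehicle and 31.8, 50.4 and 29.8 CPM with E2. Only E2 replicate 2 and vehicle replicate 3 crossed, by less than 1 count is worth in either, and the log2 fold change was -1.20 (SE 0.49, unadjusted p = 0.0232 and adjusted p = 0.130 in edgeR). Exons of the gene Gm9913 overlap those of Fbn1 by 2442 bases on the opposite strand, and the sources used here do not state whether the counting used strand. Nid1, Col5a1, Fn1 and Eln have such overlaps of 113 to 292 bases. Eln, which encodes elastin, had 7, 18 and 1 counts with vehicle and 0, 2 and 1 with E2, without overlap in CPM but with 1 count in vehicle replicate 3. The cell-adhesive glycoprotein fibronectin (Fn1) was 135, 90.9 and 70.7 CPM against 63.5, 106 and 114 CPM. These groups overlapped almost wholly, and the log2 fold change of Fn1 was 0.053 (SE 0.45).

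The small leucine-rich proteoglycans, which bind collagen fibrils, overlapped between the groups. Dcn (decorin) was 65.8, 82.0 and 58.9 CPM with vehicle and 7.94, 75.6 and 64.7 CPM with E2, the E2 replicate 1 value being a single count. Its log2 fold change was -0.29 (SE 0.52), and it was 0.20 without that library. Bgn (biglycan) had 20, 45 and 2 counts against 5, 9 and 10, and Lum (lumican) had 2, 11 and 1 against 3, 3 and 4. Among the collagens that associate with fibrils, Col12a1, abundant in muscle and tendon connective tissue, was 31.2, 26.6 and 11.8 CPM with vehicle and 39.7, 50.4 and 54.7 CPM with E2. It was the 1 matrix gene of 20 or more counts whose E2 libraries were all above its vehicle libraries, and it was too low for the test. Col22a1, found at muscle and tendon junctions, ran the other way, with 12, 15 and 3 counts against 1, 0 and 3, and did not overlap in CPM.

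Sparc and Col13a1 were the 2 genes of 20 or more counts outside both groups. Sparc, a secreted collagen-binding protein that binds type IV collagen, was the highest matrix gene per kilobase in both treatments, at 114 ± 22.8 CPM per kb with vehicle and 52.6 ± 21.0 with E2 (SD, n = 3). In CPM it was 239, 321 and 224 with vehicle and 87.3, 176 and 99.5 with E2, so the groups did not overlap. Its log2 fold change was -0.99 (SE 0.44, unadjusted p = 0.0354 and adjusted p = 0.161 in edgeR). Col13a1, which encodes a transmembrane collagen, had 7, 8 and 3 counts against 2, 2 and 1, without overlap in CPM.

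**Figure D2:**
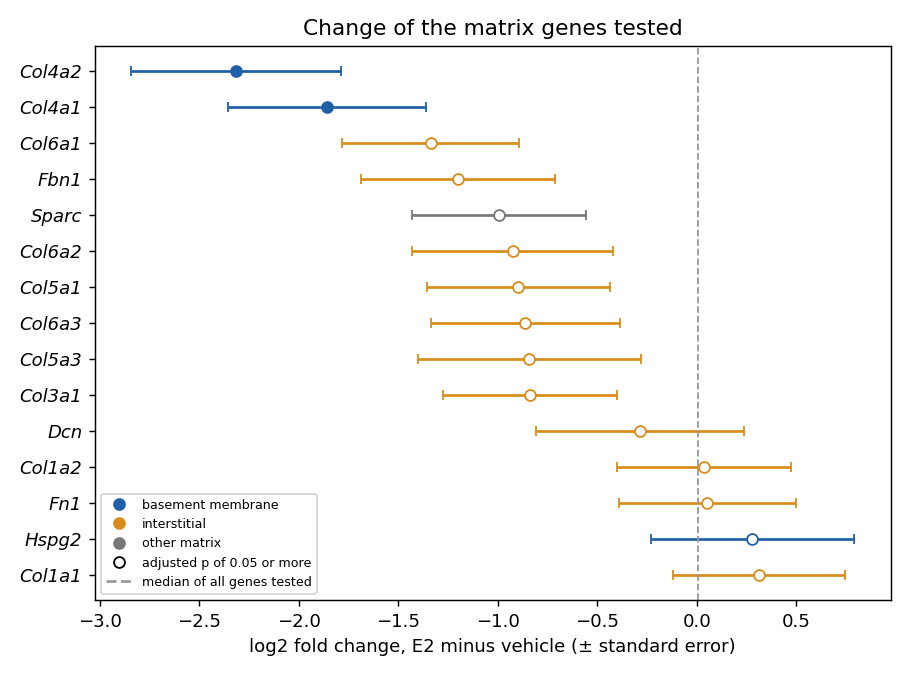
Log2 fold change of E2 against vehicle with its standard error for the 15 matrix genes tested, in order of size, blue for basement membrane, orange for interstitial and grey for other genes, filled where the adjusted p is below 0.05. The values run from -2.31 (Col4a2) to 0.31 (Col1a1), and 11 of 15 lie below 0, where the dashed line marks the median of all genes tested at 0.0054.

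Set side by side, 11 of the 15 genes tested had a log2 fold change below 0, with a median of -0.86, while the median of all 1682 genes was 0.0054 and 836 of them were below 0. The median was -1.86 for the 3 basement membrane genes and -0.84 for the 11 interstitial genes, of which 8 were below 0. The filter keeps a gene that reaches a minimum CPM in as many libraries as 1 group holds. Col4a2 and Col6a3 passed it only through the vehicle group, where they were high. The number below 0 and these medians thus draw in part on genes let in by the difference itself. With 20 counts required the medians were -0.998 and -0.79, in the same order, and over all genes with a count, without a filter, they were -0.72 and -1.05, in the opposite order. With edgeR's p taken before adjustment, at 0.05 or less, 5 matrix genes were lower (Col4a1, Col4a2, Col6a1, Fbn1 and Sparc) and 0 were higher, against 15.1% and 10.5% of all genes tested. Among genes of 20 or more counts, 11 of 31 matrix genes had all E2 libraries below all vehicle libraries and 1 had them above, against 11.8% and 6.48% of the 4657 such genes. The lower ones were 3 of 10 basement membrane genes, 6 of 19 interstitial genes and both others. With vehicle replicates 1 and 2 left out, 12 matrix genes could be tested, and 0 passed either threshold in edgeR, where 1 gene of the whole table was lower at the adjusted p and 55 at the unadjusted one.

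As sums, basement membrane genes had 866, 1064 and 424 CPM with vehicle and 310, 413 and 448 CPM with E2, and interstitial genes had 2150, 2069 and 1438 CPM against 1318, 1184 and 1144 CPM. Vehicle replicate 3 fell among the E2 libraries for the first sum and above all of them for the second. The basement membrane sum was 2.01 times as high with vehicle (785 ± 327) as with E2 (390 ± 71.8), and the interstitial sum 1.55 times as high (1886 ± 390 against 1215 ± 91.2 CPM, SD, n = 3 each). The share of basement membrane genes in the counts of both groups was 28.7, 34.0 and 22.8% with vehicle and 19.0, 25.9 and 28.1% with E2. The exact 95% binomial interval was 31.5 to 36.5% in the deepest library and 16.5 to 30.1% in the shallowest, and these intervals cover counting error only. The mean share differed by -4.15 percentage points between E2 and vehicle, which is less than the spread between libraries (SD 5.60 with vehicle and 4.74 with E2). It differed by 1.55 points in the other direction when vehicle replicates 1 and 2 were left out. Leaving out 1 library moved it to between -7.00 points (without vehicle replicate 3) and -1.40 points (without vehicle replicate 2), with -1.49 points without E2 replicate 1. Whether basement membrane and interstitial genes differed in their response to E2 was not tested.

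**Figure D3:**
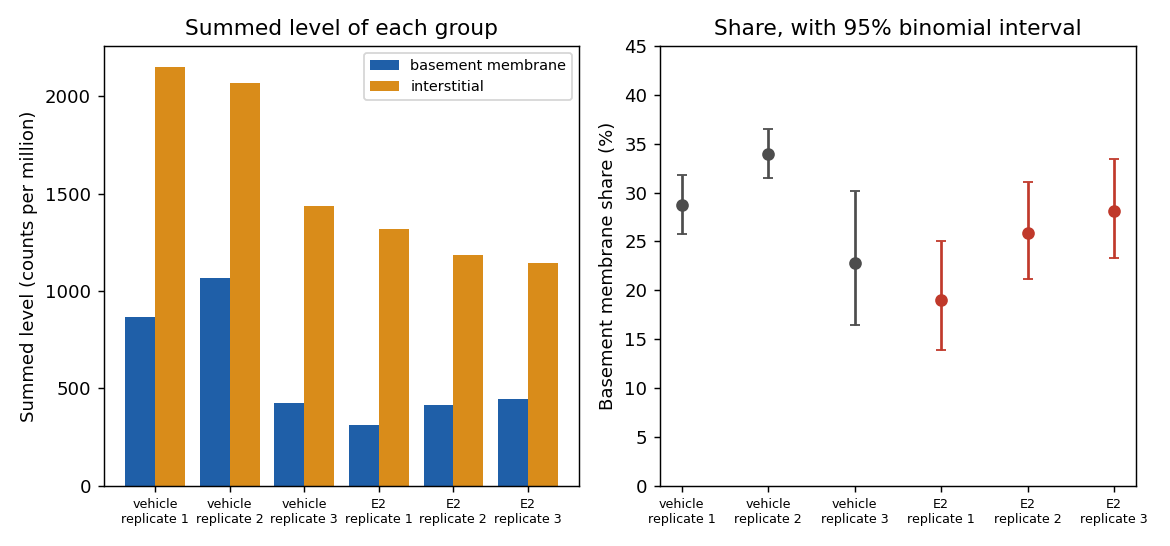
Left, summed level of the 23 basement membrane genes (blue) and the 32 interstitial genes (orange) in each library, in CPM. Right, the basement membrane genes as a percent of the counts of both groups with exact 95% binomial intervals, grey for vehicle and red for E2, where the E2 libraries at 19.0 to 28.1% overlap the vehicle libraries at 22.8 to 34.0%.

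Markers of the cell types that make these matrices were read in the same libraries. The labels describe endothelial ribosomes. All 15 endothelial markers had a count, and their sum was 295 to 1015 CPM with vehicle and 143 to 677 CPM with E2. Their members differed. Cdh5 (VE-cadherin), the most abundant, had 54, 131 and 14 counts with vehicle and 6, 37 and 75 with E2 (log2 fold change 0.13, SE 0.56), while Kdr, a receptor of vascular endothelial growth factor, had 93, 118 and 0 against 2, 10 and 10 (log2 fold change -2.22, SE 0.73, unadjusted p = 0.00645 and adjusted p = 0.0764 in edgeR). Kdr thus overlapped between the groups through vehicle replicate 3. Egfl7, the remaining endothelial marker tested, had 19, 28 and 3 counts against 1, 4 and 11 (log2 fold change -0.80, SE 0.63), which overlapped in CPM. Ptprb, an endothelial phosphatase, was too low for the test, with 34, 51 and 3 counts against 0, 6 and 7. The sum of 15 muscle fiber markers was far higher, at 75380 to 110394 CPM with vehicle and 73190 to 96838 CPM with E2. This sum hides members that went both ways, with 10 log2 fold changes below 0 and 5 above. The most abundant, Tnnc2 and Myh4, had 1.35 (SE 0.41) and -1.08 (SE 0.46). All E2 libraries were below all vehicle libraries in 5 of the 15 and above in 1, against 11.8% and 6.48% of all genes of 20 or more counts. Smooth muscle and pericyte markers summed to 1639 to 5020 CPM against 1214 to 2120 CPM, with 11 of 12 having a count and Higd1b at 0, and most of that sum is Des, which muscle fibers also express. Des had a log2 fold change of -1.17 (SE 0.52) and the smooth muscle myosin Myh11 one of -1.32 (SE 0.56), with unadjusted p of 0.0366 and 0.0283 and adjusted p of 0.163 and 0.141 in edgeR, and both overlapped between the groups. The pericyte marker Abcc9, the remaining one tested, had a log2 fold change of 0.37 (SE 0.55). The 12 fibroblast markers summed to 106 to 124 CPM against 94.5 to 131 CPM. Tendon markers summed to 507 to 782 against 463 to 622 CPM with Scx at 0, adipocyte markers to 121 to 149 against 87.3 to 219 CPM, and immune markers to 62.3 to 236 against 63.5 to 124 CPM with Ms4a1 at 0. Of these lists, only the 8 Schwann cell markers did not overlap between the groups, at 69.2 to 164 CPM with vehicle and 31.8 to 60.4 CPM with E2. In bulk samples such as these, fewer cells of a type and less RNA per cell cannot be told apart, and the part of these markers in the matrix values was not tested.

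Set against the endothelial markers of the same library, Col4a1 and Col4a2 together had 43.3, 46.7 and 64 counts per 100 marker counts with vehicle and 50, 18.8 and 13.2 with E2. E2 replicate 1, with 9 type IV collagen and 18 marker counts, thus lay among the vehicle libraries, and the other E2 libraries below them. Against the smooth muscle and pericyte markers the values were 8.21, 10.1 and 11.5 with vehicle and 3.37, 4.05 and 7.38 with E2, and against the fibroblast markers 372, 382 and 178 with vehicle and 69.2, 57.7 and 94.7 with E2. The groups did not overlap on these last 2 scales, and they did on the endothelial one. The fibroblast scale rests on few marker counts, with 9 in vehicle replicate 3 and 13 to 26 with E2. The smooth muscle and pericyte scale rests mostly on Des, which muscle fibers also express. Against the muscle fiber markers the values were 0.373, 0.546 and 0.250 with vehicle and 0.0891, 0.0780 and 0.122 with E2, also without overlap. The ratios were chosen after the values had been seen, and are given with no test.

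**Figure D4:**
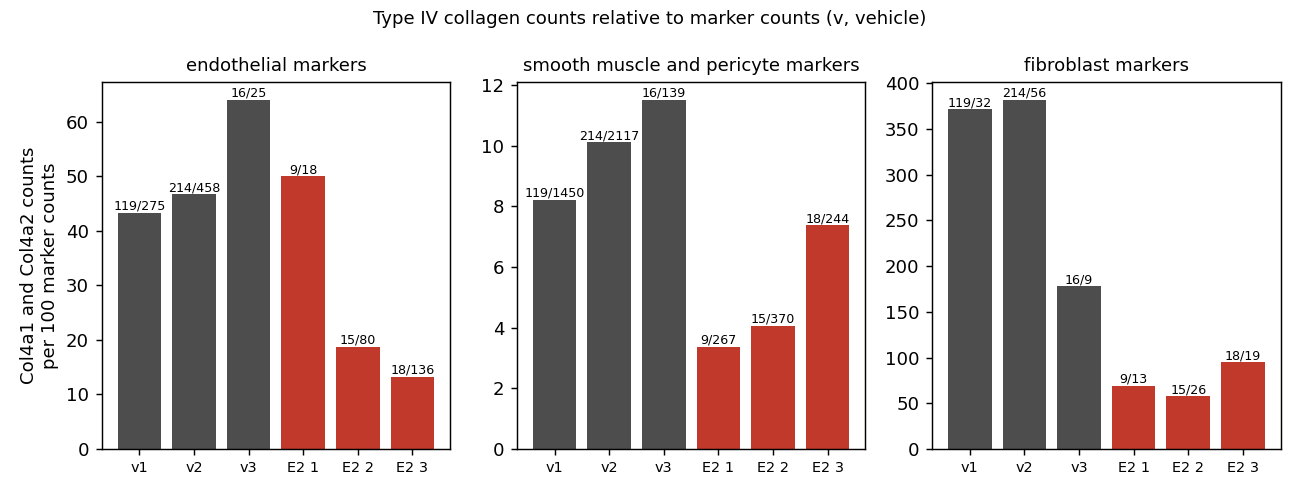
Summed counts of Col4a1 and Col4a2 per 100 counts of endothelial, smooth muscle and pericyte, or fibroblast markers in each library (v1 to v3, vehicle, grey; E2, red), with both counts above each bar. On the endothelial scale E2 replicate 1 reaches 50, within the vehicle range of 43.3 to 64, while on the other scales every E2 bar is below every vehicle bar.

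The genes that receive, build and remove this matrix were read from lists, and none passed the adjusted threshold in edgeR. Of 23 matrix receptors, 3 were tested and 0 passed at the unadjusted p. Itgb1, the integrin β1 subunit shared by most collagen and laminin receptors, had 64, 146 and 7 counts with vehicle and 7, 24 and 25 with E2 (log2 fold change -0.94, SE 0.50). The discoidin collagen receptor Ddr2 had 78 counts and the laminin receptor dystroglycan (Dag1) had 74, with log2 fold changes of -0.12 and 0.19. Sdc4, a syndecan, was too low for the test with 20, 19 and 1 counts against 0, 1 and 0. Of 32 genes of collagen biosynthesis, 4 were tested and 0 passed at the unadjusted p. The lysyl hydroxylases Plod1 and Plod3 had log2 fold changes of 0.84 (SE 0.42) and 0.40 (SE 0.45), the prolyl hydroxylase subunit P4hb had -0.30 (SE 0.43), and Mia3, needed to export procollagen from the endoplasmic reticulum, had -0.87 (SE 0.52). Of the 11 genes of this list with 20 or more counts, Plod1 was the 1 whose E2 libraries all lay above its vehicle libraries in CPM. It had 25, 50 and 7 counts against 18, 39 and 26. Over all genes with 20 or more counts this share was 6.48%, so 1 of 11 says little about the list.

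Of 34 genes of matrix turnover, 4 were tested and 1 passed in each direction at the unadjusted p, which 15.1% of all genes tested passed in the lower and 10.5% in the higher direction. Mmp2, the gelatinase that degrades type IV collagen among other substrates, had 5, 20 and 1 counts with vehicle and 7, 12 and 21 with E2, higher in all E2 libraries in CPM (log2 fold change 1.53, SE 0.56, unadjusted p = 0.0132 and adjusted p = 0.101 in edgeR). It passed the filter on low counts only through the E2 group, where it was high, so its place among the genes tested depends on the difference itself. The metalloproteinase inhibitor Timp2 had 64, 97 and 23 counts against 11, 37 and 10, lower in all E2 libraries in CPM (log2 fold change -1.03, SE 0.47, unadjusted p = 0.0420 and adjusted p = 0.176 in edgeR). Timp3, an inhibitor bound to the matrix, had the most counts of the list at 523 and a log2 fold change of -0.18 (SE 0.44), and its exons overlap those of Syn3 on the opposite strand by 1733 bases. The membrane-bound protease Mmp24 had 229 counts and a log2 fold change of 0.61 (SE 0.50).

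The promoter windows of RefSeq were searched on both strands for the letters that estrogen receptors and Sp-family factors recognise. A total of 46 of the 66 matrix genes had a window there, 12 of the 15 tested ones among them. The estrogen response element half-site, GGTCA, was in 31.4% of the 51 matrix windows and in 40.5% of all 32851 windows, and among tested genes it was in those of Hspg2, Col6a2 and Sparc. Neither type IV collagen window shown above holds it. The full palindrome of 2 half-sites separated by 3 bases was in 0 matrix windows and in 0.07% of all. The GC box, GGGCGG, was in 62.7% of matrix windows and 35.7% of all, among them those of Col4a1 and Col4a2 and of 6 other tested genes (Hspg2, Col1a2, Col5a1, Col5a3, Col6a2 and Fbn1). These are matches of letters only, in windows whose start sites were not measured here.

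The call on type IV collagen was followed through the alternatives to the filter, scaling and test. Both Col4a1 and Col4a2 had negative values in all 18 alternatives in which they were tested, and an adjusted p below 0.05 in 10 of them. Log2 fold changes ran from -2.33 to -1.26 for Col4a1 and from -2.52 to -0.90 for Col4a2. The adjusted p ran from 0.000525 to 0.616 for Col4a1 and from 2.56e-05 to 0.812 for Col4a2, the lowest values being those without vehicle replicate 3.

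**Figure D5:**
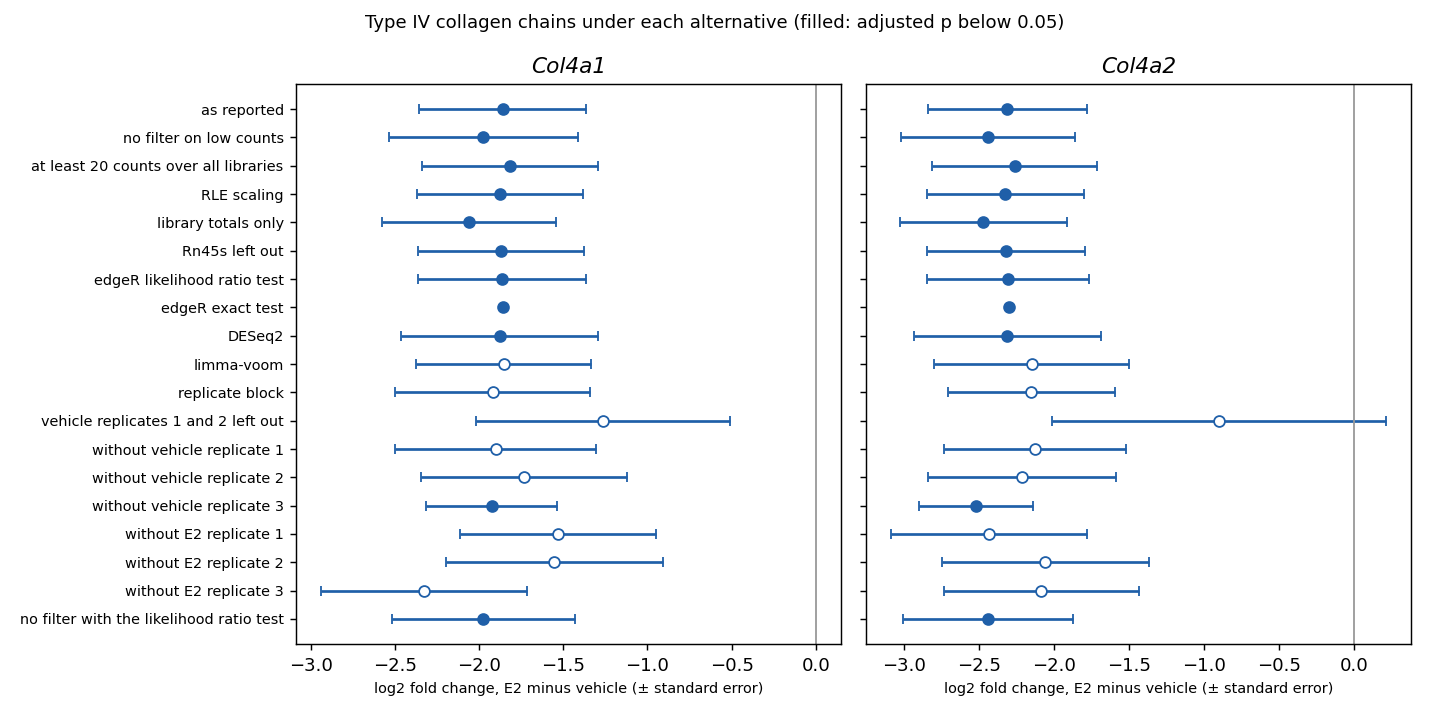
Log2 fold change of Col4a1 (left) and Col4a2 (right) with its standard error, where the method gives one, as reported and under each alternative, filled where the adjusted p is below 0.05. All points lie below 0, from -2.33 to -1.26 for Col4a1 and from -2.52 to -0.90 for Col4a2, and the points nearest to 0 are those with vehicle replicates 1 and 2 left out.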

How the data were processed

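TRAPseq counts of 6 libraries were analysed, grouped as vehicle or E2 from the sample labels. Per the submitters' processing notes and the paper, the authors used bcl2fastq (2.17) for demultiplexing, FastQC (0.11.2) for quality, STAR (2.5.3a) for mapping to mm10 and featureCounts in Subread (1.6.0) for counting. The authors deposited raw counts, 1 whole number per gene symbol and library, with no normalization. The sources used here do not give the strand setting. The labels name a stranded total RNA kit and the paper a ribosome profiling kit.

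From the deposited counts, E2 was compared with vehicle across the whole table with edgeR (4.0.16) in R (4.3.3), using filterByExpr, TMM scaling, the quasi-likelihood test and Benjamini-Hochberg adjustment over the 1682 genes kept. A gene was called where the adjusted p was below 0.05 or, as a looser rule, where the unadjusted p was at most 0.05 and the average log2 CPM at least 0. Standard errors came from dividing the log2 fold change by the root of its F statistic. CPM (counts per library total, scaled to 1000000) used all counts. Transcript lengths and positions came from GENCODE M21 and promoter windows from RefSeq. The test was checked on simulated counts. Alternatives changed the filter, the scaling, the libraries and the test, including DESeq2 (1.42.0) and limma-voom (limma 3.58.1).

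The matrix genes, their division and the receptor, biosynthesis, turnover and marker lists were chosen with earlier results of these data known. Genes tested or with 20 or more counts were named with each library's value, and the 4 genes with the most counts in each of the 3 further lists were named too. Other genes were named by their total, except Agrn, Col6a5, Col6a6, Col16a1 and Col23a1, whose counts by group were singled out after they were seen. The markers Cdh5, Kdr, Egfl7, Ptprb, Des, Myh11, Abcc9, Tnnc2 and Myh4 were likewise singled out after their values were seen.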

Additional observations from a re-analysis of the deposited data

How the results depend on the processing

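The 2 matrix genes called lower at the adjusted p in edgeR became 0 with limma-voom (9 of all 1682 genes lower) and with the replicate block (1 of 1682). With 1 library left out they became 8 of 19 tested without vehicle replicate 3, with 526 of all 2162 genes lower. Without any other single library they became 0, in fits that called only 2 to 11 genes of the whole table lower. With vehicle replicates 1 and 2 left out, the log2 fold changes of Col4a1 and Col4a2 were -1.26 and -0.90. With 10 counts required in every library the number called lower was 0 of 5, with neither of these genes among those tested. It was also 0 of all 578 genes. The 2 called lower became 3 with edgeR's likelihood ratio test, where 152 of 1682 genes were lower. They became 4 of 58 without a filter (208 of 14057) under the likelihood ratio test, an alternative chosen after seeing the data. It added Col16a1 and Col23a1, with E2 counts of 0. The 5 of 15 lower at the unadjusted p (254 of all 1682 genes) became 14 of 58 without a filter (957 of 14057) and 17 of 58 under that added alternative (1221 of 14057). They became 3 of 5 with 10 counts in every library (89 of 578) and 8 of 31 with 20 counts in all (630 of 4657). They became 9 of 15 with library totals only (315 of 1682), 8 of 15 with the likelihood ratio test (289 of 1682) and 3 of 15 with the replicate block (170 of 1682). With vehicle replicates 1 and 2 left out they became 0 of 12 (55 of 1907), and with 1 library left out 2 of 18 without E2 replicate 3 (290 of 2151) to 9 of 19 without vehicle replicate 3 (597 of 2162). Same-numbered vehicle and E2 libraries had deviations from their group means that correlated at -0.126, 0.0191 and -0.205, so the replicate block was not taken as a paired analysis. Higher calls stayed at 0 in every alternative. The share difference of -4.15 points became 1.55 with vehicle replicates 1 and 2 left out, -2.17 with the most abundant gene of each group left out, and -7.00 to -1.40 with 1 library left out. Genes near 0 changed sign. The log2 fold change of Fn1 was -0.052 without a filter under both tests, -0.12 with library totals, 0.56 without vehicle replicates 1 and 2, and -0.17 to 0.33 with 1 library left out. That of Col1a2 was -0.045 without a filter under both tests, -0.16 with 10 counts in every library, -0.13 with library totals, -0.31 without vehicle replicates 1 and 2, and -0.25 to 0.29 with 1 library left out. With 1 library left out, that of Dcn was -0.51 to 0.20 and that of Hspg2 -0.50 to 0.73, and Hspg2 reached 0.97 without vehicle replicates 1 and 2. Library totals alone moved the median of all genes to -0.15, against which Col4a1 stood at -2.06 and Col4a2 at -2.47. The whole table's calls also moved, from 50 lower and 42 higher to 526 and 477 without vehicle replicate 3, and to 1 and 7 with the replicate block. The causes were not tested. At this depth the default filter left out 51 of the 66 genes, of which 8 had no count.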
